A study of Mus musculus with 10 samples.

Results

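The G1 cyclins, their kinases, the CIP/KIP kinase inhibitors and Rgcc were examined in laser-captured mouse granulosa cells. The set holds 10 genes (Rgcc, Ccnd1, Ccnd2, Ccnd3, Ccne1, Cdk4, Cdk6, Cdkn1a, Cdkn1b and Cdkn1c), found by exact symbol among the 35087 gene symbols of the deposited tables. The cell cycle genes were taken by function, but with earlier results of these data known, so they are not a set chosen blind. Rgcc was chosen by its read levels, which were lower after N-acetyl-L-cysteine (NAC). Its difference between the groups is therefore given as a description without a test.

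Libraries were made by GEO-seq, a protocol for the small amounts of RNA in captured tissue areas, from the ovaries of wild-type C57B6/J females aged 3 weeks. The NAC group (4 libraries) received 150 mg/kg of this antioxidant and cysteine source into the peritoneum on 3 days in a row, and the saline group (6 libraries) received saline on the same schedule. Ovaries were taken on day 4. The labels give 1 batch for all libraries and tie none of them to an animal, so a p-value here reflects how much captured samples varied, and some of them may come from the same animal.

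Estimated reads numbered 116461 to 1667181 per NAC library and 1340324 to 2488408 per saline library. Fewer genes were seen in NAC 2 and NAC 3: 84.8% and 85.1% of the genes tested had a read there, against 97.7% to 99.5% in the other libraries. One read was worth 8.05 CPM (reads scaled to a common library size with TMM factors) in NAC 3, against 0.445 to 2.05 CPM in the other libraries, so low values in NAC 3 rest on few reads. All 11 granulosa cell markers had reads in every library except NAC 2, which had reads for 10. Their summed level was 8303 to 22811 CPM in NAC and 13625 to 42330 CPM in saline. Oocyte markers were also present, at 177.5 to 1307 CPM in NAC and 1.33 to 1699 CPM in saline over 10 genes, and so were theca and stroma markers, at 64.4 to 1847 CPM in NAC and 107.3 to 974.9 CPM in saline over 10 genes.

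A cell leaves G1 when D-type cyclins (Ccnd1, Ccnd2, Ccnd3) activate the kinases CDK4 and CDK6, and cyclin E (Ccne1) then activates CDK2, so that the retinoblastoma protein releases E2F factors. The CIP/KIP proteins, encoded by Cdkn1a, Cdkn1b and Cdkn1c, bind and inhibit these kinases. In the mouse ovary Ccnd2 is the D-type cyclin that follicle-stimulating hormone induces in granulosa cells, and Cdkn1b is linked to their exit from the cycle on luteinization. Rgcc was first described as a complement-responsive gene, and its human product binds the mitotic kinase CDK1.

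Promoters of Rgcc and Cdk4 are shown because these were the members whose NAC and saline libraries did not overlap in CPM. Each runs from 250 bases before to 50 bases after the annotated start (RefSeq, GRCm38.p6, 5′ to 3′ on the gene's strand). The Rgcc window lies on the minus strand at chr14:79301586-79301885, with capitals for the GC box GGGCGG on either strand, and the Cdk4 window on the plus strand at chr10:127063285-127063584, with capitals for the E-box CACGTG, the letters read by MYC and related factors.
Rgcc: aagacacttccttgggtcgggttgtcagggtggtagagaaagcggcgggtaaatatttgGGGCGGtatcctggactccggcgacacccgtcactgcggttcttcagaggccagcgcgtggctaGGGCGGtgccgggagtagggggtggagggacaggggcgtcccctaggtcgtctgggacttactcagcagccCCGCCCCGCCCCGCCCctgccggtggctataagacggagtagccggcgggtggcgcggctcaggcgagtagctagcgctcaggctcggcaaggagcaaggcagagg
Cdk4: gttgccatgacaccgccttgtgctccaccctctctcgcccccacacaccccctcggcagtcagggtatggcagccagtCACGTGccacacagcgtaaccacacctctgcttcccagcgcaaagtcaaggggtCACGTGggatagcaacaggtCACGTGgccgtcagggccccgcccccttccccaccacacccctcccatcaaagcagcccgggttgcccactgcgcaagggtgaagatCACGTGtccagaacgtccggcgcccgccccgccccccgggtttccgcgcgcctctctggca
The Rgcc window held 5 GC boxes, of which those in the long run of capitals share letters, and the Cdk4 window held 4 E-boxes. GGGCGG occurs in 35.7% and CACGTG in 7.15% of the 32851 promoter windows of the table, counting both strands. The core letters of HIF sites, ACGTG, occur in 19.6% of the windows and the FOXO letters GTAAACA in 3.65%; neither was found in the Rgcc window, while in the Cdk4 window all 8 matches to ACGTG lie within the E-boxes. Windows were found for 7 of the 10 genes, and Ccnd1, Ccnd2 and Cdkn1c were not matched. Of the 9 windows found, 7 held GGGCGG, with 3 matches in that of Cdk4, left in lower case. CACGTG was in 2 of the 9, those of Cdk4 and Cdk6. Such matches describe letters, not binding.

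Rgcc (GRCm38 chromosome 14, 79288756 to 79301645) had 162 CPM in NAC 1, 119 in NAC 2, 48.3 in NAC 3 and 185 in NAC 4, against 397 to 906 CPM with a median of 620 in saline. Every NAC library lay below every saline library. NAC averaged 129 ± 60.1 CPM (SD over 4 libraries) and saline 638 ± 198 CPM (SD over 6), and the log2 fold was -2.24 (SE 0.36), or 4.72-fold lower. The highest NAC library, NAC 4, came from 344 reads, and the lowest saline library, saline 1, from 574. The value of NAC 3 rests on 6 reads, with an exact 95% Poisson interval of 17.7 to 105.2 CPM that covers counting error only. That interval lies below the lowest saline value, as a description only, since Rgcc was picked by its lower values in these same libraries. Without NAC 2 and NAC 3, the shallow libraries, the log2 fold was -1.91, and without NAC 3 alone it was -2.08. Since captured tissue was sequenced in bulk, fewer cells carrying a transcript and less transcript per cell cannot be told apart.

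**Figure D1:**
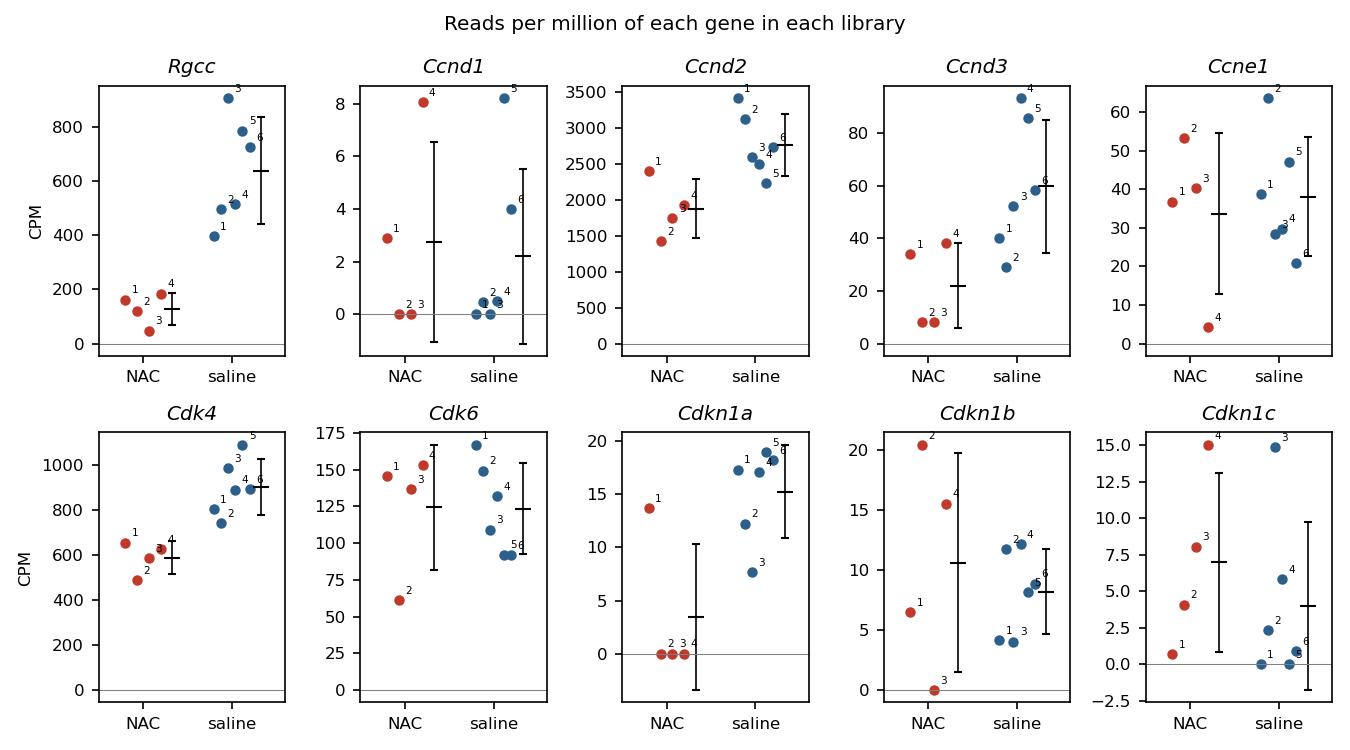
CPM of each gene (vertical axes) in the NAC and saline libraries; points are libraries labelled by replicate number, and the bar gives the mean ± SD. For Rgcc all NAC points (48.3 to 185 CPM) lie below all saline points (397 to 906 CPM), and Cdk4 is the other gene without overlap.

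The granulosa marker sum moved with the same comparison, with a median of 13818 CPM in NAC and 39013 CPM in saline and a median log2 fold of -0.76 over the 11 markers. Within saline, Rgcc was 397 and 496 CPM in saline 1 and saline 2, where the granulosa markers summed to 13625 and 16496 CPM, and 514 to 906 CPM in the other saline libraries, where they summed to 38275 to 42330 CPM. NAC 3 had a higher marker sum than saline 1 and saline 2, at 22811 CPM, and the lowest Rgcc. As a share of the summed granulosa markers, Rgcc was 1.35% in NAC 1, 1.43% in NAC 2, 0.212% in NAC 3 and 1.19% in NAC 4, against 1.24% to 3.01% in saline. On this scale the groups overlapped, through saline 4. Inha, the inhibin alpha subunit gene, made up 31.1% to 53.8% of that sum in NAC and 55.8% to 79.4% in saline. Its own level was 2586 to 8216 CPM in NAC and 7606 to 32857 CPM in saline. Shares of the sum, here and for other genes, therefore follow Inha in large part, and a sum without it was not examined. With the granulosa marker level as a covariate, a fit chosen after seeing the data, the log2 fold of Rgcc was -1.83 (SE 0.45); the part of the captured granulosa cells in the difference was not tested further.

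Rgcc is known to be expressed in capillary endothelium, so the 8 endothelial markers were set beside it. Their summed level was 90.9 CPM in NAC 1, 205 in NAC 2, 48.3 in NAC 3 and 128 in NAC 4, against 26.1 to 92.2 CPM with a median of 48.0 in saline. NAC 2 and NAC 4 lay above all saline libraries, and NAC 1 and NAC 3 within their range. Over the 5 markers tested the median log2 fold was 1.70, and it was also positive for the theca and stroma (1.36), oocyte (1.30) and smooth muscle and pericyte (1.15) markers tested. Pecam1, an adhesion molecule of endothelium, had 19.5 to 55.3 CPM in NAC and 6.76 to 16.6 CPM in saline, without overlap, and was picked after its values were seen. For 2 of the 8 markers the mean was lower in NAC: Egfl7, a secreted endothelial protein gene, averaged 17.7 CPM in NAC and 21.5 CPM in saline, and Esam, an endothelial adhesion molecule gene, 6.78 CPM in NAC and 7.69 CPM in saline. With the endothelial level as a covariate the log2 fold of Rgcc was -2.46 (SE 0.44), and with the oocyte level it was -2.01 (SE 0.39). All 8 endothelial markers had reads in at least 1 library.

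**Figure D2:**
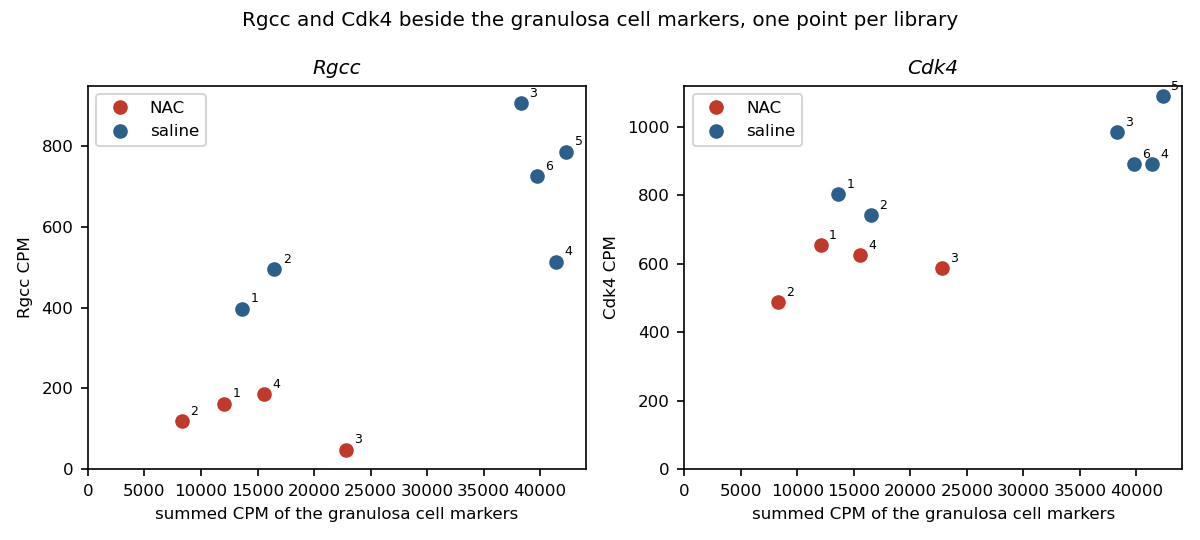
CPM of Rgcc (left) and Cdk4 (right) on the vertical axes against the summed CPM of the 11 granulosa cell markers on the horizontal axes, 1 point per library, labelled by replicate. NAC points sit at 8303 to 22811 CPM of markers, and saline 1 and saline 2, at 13625 and 16496 CPM, have more Rgcc than any NAC library. Rgcc was picked by its lower values in NAC, and its share of the marker sum overlaps between the groups (saline 4 at 1.24%, NAC 2 at 1.43%).

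The genes most like Rgcc across the 10 libraries, by Pearson's correlation of log2 CPM among 9372 protein-coding genes with at least 10 CPM on average, included Abcf2, Abhd14a and Mfge8. Abcf2, an ATP-binding cassette family gene, had a correlation of 0.977, Abhd14a of 0.976 and Mfge8, which encodes a secreted glycoprotein that binds dying cells, of 0.963. The points share libraries and their depth, and the gap between the groups enters every correlation. Within the 6 saline libraries the same genes had correlations of 0.853, 0.735 and 0.930. Mfge8 had 68.3 ± 53.2 CPM in NAC and 283 ± 111 CPM in saline (SD, n = 4 and 6). Among the members, Cdk4 had a correlation with Rgcc of 0.885 over the 10 libraries, Ccnd3 of 0.846 and Cdk6 of -0.075, again as a description.

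Of the 9 members other than Rgcc, 7 passed the filter on low counts, and 0 of these 7 were called by edgeR's quasi-likelihood test at an adjusted p under 0.05. Over all 10945 genes tested, 8 were called (0.0731%), 6 lower in NAC (0.0548%) and 2 higher (0.0183%); nothing is read from these counts about Rgcc, which was picked from this contrast. DESeq2 also called 0 of the 7, where it called 4.21% of all genes, and so did limma-voom with sample weights, which called 4.77%. At an unadjusted edgeR p under 0.05 there were 3 of the 7, all lower in NAC (Ccnd2, Ccnd3 and Cdk4), where 16.2% of all genes tested reached that level and 8.34% did so with a lower value in NAC. Their log2 folds were negative for 5 of 7 with a median of -0.56, beside 49% negative and a median of 0.018 over all genes tested. Cdkn1a passed the filter through its saline reads, and Ccnd1 and Cdkn1c did not pass.

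The D-type cyclins were dominated by Ccnd2 in every library. Ccnd2 (chromosome 6, 127125162 to 127152193) had 2399, 1427, 1748 and 1927 CPM in NAC 1 to NAC 4, against 2231 to 3407 CPM with a median of 2664 in saline. NAC 2, NAC 3 and NAC 4 lay below all saline libraries, and NAC 1 lay above saline 5. NAC averaged 1875 ± 406 CPM (SD over 4 libraries) and saline 2762 ± 429.5 CPM (SD over 6). The log2 fold was -0.56 with an SE of 0.26 and did not pass (edgeR adjusted p = 0.294), and it ran between -0.89 on log2(TPM + 0.1) and -0.35 after thinning to the shallowest library. Within saline, Ccnd2 was highest in saline 1 and saline 2, at 3407 and 3113 CPM, where Rgcc was lowest. The other saline libraries did not continue this order: saline 4, next lowest in Rgcc (514 CPM), had 2494 CPM of Ccnd2. Over the 10 libraries Ccnd2 had a correlation with Rgcc of 0.679, as a description. Set against the granulosa marker sum, Ccnd2 was 7.66% to 19.9% in NAC and 5.27% to 25.01% in saline.

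Ccnd3, the D-type cyclin gene best known from lymphocytes (chromosome 17, 47505051 to 47599691), had 33.9, 8.19, 8.05 and 38.1 CPM in NAC 1 to NAC 4, against 29.2 to 93.3 CPM with a median of 55.3 in saline. The low values of NAC 2 and NAC 3 rest on 4 reads and 1 read, and NAC 1 and NAC 4 overlapped the saline range. Its log2 fold of -1.23 had an SE of 0.48 and did not pass (edgeR adjusted p = 0.227). Without NAC 2 and NAC 3 it was -0.77 (edgeR adjusted p = 0.390), and with the granulosa level as a covariate -0.35 (SE 0.55). Ccnd1 (chromosome 7, 144929931 to 144939925), the D-type cyclin gene of many epithelial and tumour cells, was near the limit of detection. Its reads summed to 19 in NAC, from 2 of 4 libraries, and to 27 in saline, from 4 of 6, and it lay between 0 and 8.06 CPM in NAC and between 0 and 8.20 CPM in saline. The highest values were those of NAC 4 and saline 5, and a count of 0 in NAC 3 still allows 24.2 CPM (3 reads).

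By deposited TPM, Ccnd2 made up 98.9% ± 0.780 (SD) of the summed D-type cyclins in the 4 NAC libraries and 98.6% ± 0.710 in the 6 saline libraries, Ccnd3 1.07% ± 0.783 in NAC and 1.34% ± 0.689 in saline, and Ccnd1 at most 0.112% in any library. A share within a library does not depend on how libraries are scaled to each other. It does depend on length: the deposited length of Ccnd2 was 207 to 368 bases, although its longest annotated transcript has 6330. With CPM per kilobase of the longest transcript, Ccnd2 still held 98.0% ± 1.43 in NAC and 96.2% ± 2.01 in saline.

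In CPM, Cdk4 (chromosome 10, 127063534 to 127067920), the kinase partner of D-type cyclins, was lower in every NAC library than in any saline library. It had 655, 487, 588 and 626 CPM in NAC 1 to NAC 4, against 743 to 1090 CPM with a median of 891 in saline. NAC averaged 589 ± 73.2 CPM (SD over 4 libraries) and saline 901 ± 125 CPM (SD over 6). The log2 fold was -0.61 with an SE of 0.23, and edgeR did not call the gene (adjusted p = 0.225). Over all genes tested, every NAC library lay below every saline library for 3.43%, and for 1 of the 7 members tested besides Rgcc; for 1.96% of all genes, and 0 of the 7, every NAC library lay above. The size of the gap depended on the scale: effective-length offsets gave a log2 fold of -0.68 (SE 0.23), offsets for GC content and transcript length gave -0.22 (SE 0.19), the granulosa level as a covariate -0.38 (SE 0.28) and log2(TPM + 1) -0.36. By deposited TPM the groups overlapped, with NAC 1 at 1205, above saline 4 (1191.5) and saline 6 (1191.7). As a share of the granulosa marker sum, Cdk4 was 2.58% to 5.87% in NAC and 2.15% to 5.90% in saline.

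**Figure D3:**
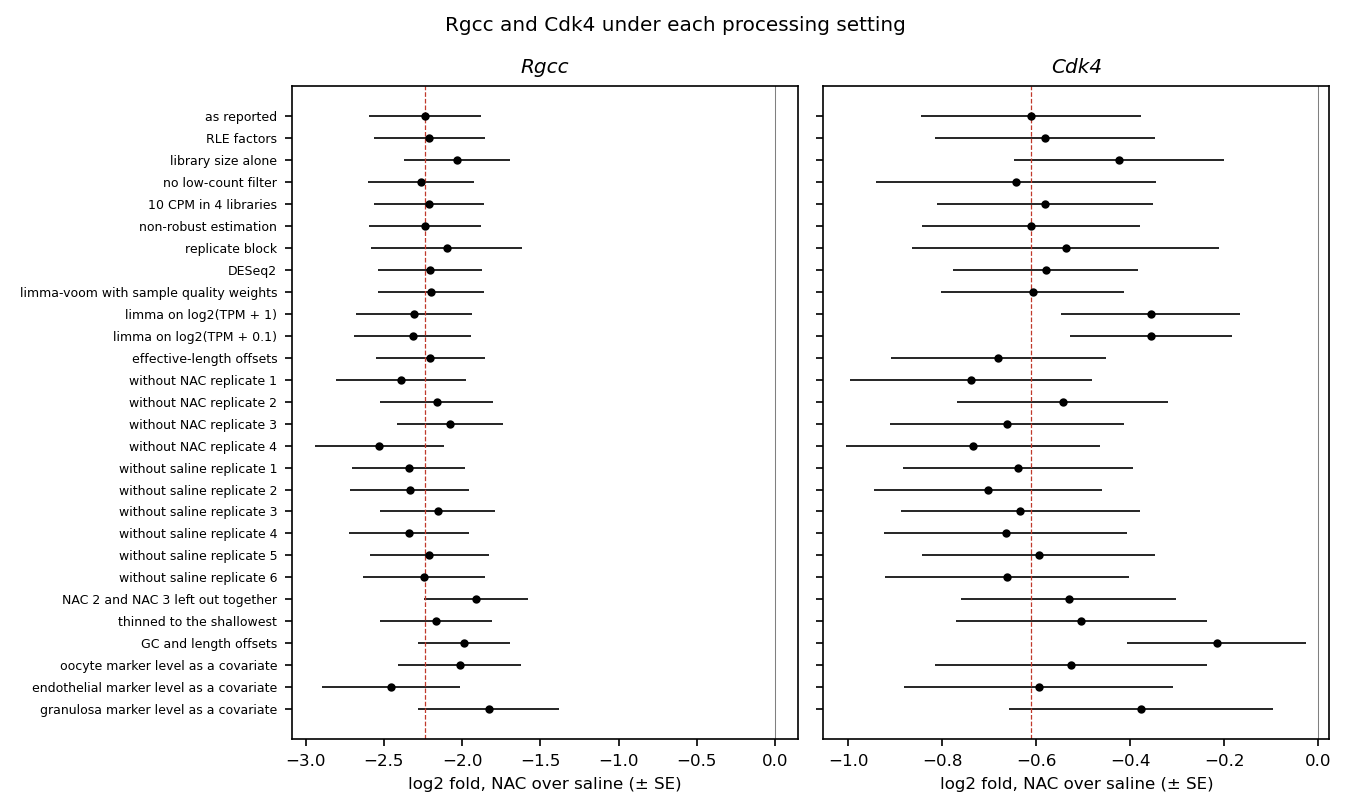
log2 fold of NAC over saline (horizontal axes, ± SE) for Rgcc (left) and Cdk4 (right) under each processing setting, with the reported value as a dashed line. Rgcc lies between -2.53 and -1.83 and Cdk4 between -0.74 and -0.22, all below 0. Rgcc was picked by its lower values in these same libraries, so its sign is a description.

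Cdk6 (chromosome 5, 3341485 to 3531008), the other kinase of D-type cyclins, had nearly equal means in both groups. It had 146, 61.4, 137 and 153 CPM in NAC 1 to NAC 4, against 91.6 to 167 CPM with a median of 120.5 in saline, and NAC 2 alone lay below the saline range. NAC averaged 124 ± 42.4 CPM (SD over 4 libraries) and saline 123 ± 31.0 CPM (SD over 6). The log2 fold was 0.013 (edgeR adjusted p = 0.988), and its SE of 0.30 leaves room for differences of either sign. Ccne1 (chromosome 7, 38097984 to 38107534), the cyclin E1 gene, had 36.8, 53.2, 40.3 and 4.30 CPM in NAC 1 to NAC 4, against 20.9 to 63.6 CPM with a median of 34.3 in saline. NAC 4, with 8 reads in a deep library, was the lowest, and the other NAC libraries lay within the saline range. Its log2 fold of -0.27 had an SE of 0.55 (edgeR adjusted p = 0.839), and it was 0.098 without NAC 4, -0.97 without NAC 2 and NAC 3 and -1.48 with limma-voom and sample weights.

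The CIP/KIP inhibitor genes were all low. Cdkn1a (chromosome 17, 29090976 to 29100727), whose protein is induced by p53, had 19 reads in NAC 1 and 0 in NAC 2, NAC 3 and NAC 4, against 17 to 41 reads in each saline library. In CPM this is 13.7 in NAC 1 and 0 in the other NAC libraries, against 7.66 to 19.0 with a median of 17.2 in saline. NAC 1 lay within the saline range, and the other NAC libraries lay below it. A count of 0 allows 1.61 CPM in NAC 4 and 6.14 CPM in NAC 2, both under the lowest saline value, but 24.2 CPM in NAC 3, above the highest. The fitted log2 fold of -1.75 had an SE of 0.96 (edgeR adjusted p = 0.373). Without NAC 1 edgeR called the gene (adjusted p = 0.0476), but that fit leaves a NAC group with 0 reads in all, for a gene that passed the filter through saline, so the call follows from the library left out and is not read as a difference.

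Cdkn1b (chromosome 6, 134920401 to 134925513) had 6.49, 20.5, 0 and 15.6 CPM in NAC 1 to NAC 4, against 4.06 to 12.2 CPM with a median of 8.55 in saline. NAC 2 and NAC 4 were above all saline libraries and NAC 3, with 0 reads, was below them. Its log2 fold of 0.51 had an SE of 0.70 (edgeR adjusted p = 0.741). Cdkn1c (chromosome 7, 143458339 to 143461050), an imprinted gene expressed from the maternal allele, had 0.721, 4.10, 8.05 and 15.0 CPM in NAC 1 to NAC 4, against 0 to 14.9 CPM with a median of 1.62 in saline. Its reads summed to 32 in NAC and to 52 in saline, of which 33 were in saline 3. Fitted without the filter, its log2 fold of 0.75 had an SE of 1.10 (edgeR adjusted p = 0.722), and that of Ccnd1, 0.58, an SE of 1.28 (edgeR adjusted p = 0.823). By deposited TPM, Cdkn1a made up 83.4% of the CIP/KIP sum in NAC 1 and was listed at 0 in the other NAC libraries, against 72.2% ± 19.9 (SD over 6 libraries) in saline. In these, the inhibitor with the highest TPM was Cdkn1b in NAC 2 and Cdkn1c in NAC 4, while NAC 3 had 1 read for the 3 genes together, of Cdkn1c, which gives no order.

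Levels between genes were compared per length. By deposited TPM the order of means in saline was Ccnd2 (2992), Cdk4 (1296), Rgcc (897), Ccnd3 (37.1), Ccne1 (25.9), Cdkn1a (21.2), Cdk6 (20.9), Cdkn1c (4.10), Cdkn1b (3.70) and Ccnd1 (0.698). In NAC the first 3 were again Ccnd2 (1798), Cdk4 (1019) and Rgcc (202). In saline the ranges over libraries separated Ccnd2 from Cdk4 and Rgcc from Ccnd3, and all other neighbours overlapped. In NAC they separated Cdk4 from Rgcc and Rgcc from Ccne1, which was next. Rgcc was listed at the same 918 bases in every library, whereas the lengths of most other members varied. With CPM per kilobase of the longest transcript Rgcc came first in saline (695 ± 215), followed by Cdk4 (439 ± 60.7) and Ccnd2 (436 ± 67.9), with overlapping ranges, while in NAC it ranked (140 ± 65.5) behind Ccnd2 (296 ± 64.1) and Cdk4 (287 ± 35.7).

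**Figure D4:**
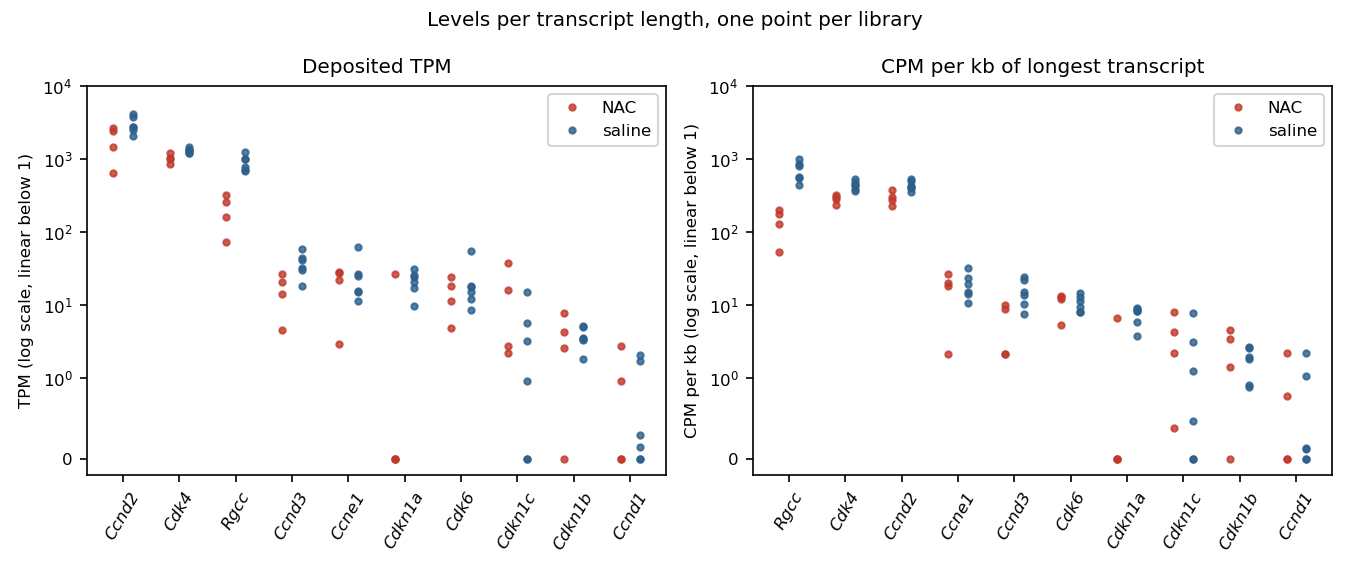
Level of each gene per transcript length in each library, as deposited TPM (left) and as CPM per kilobase of the longest annotated transcript (right), on vertical axes that are logarithmic above 1 and linear below. In each library Rgcc, Cdk4 and Ccnd2 lie above the other 7 genes on both scales. The gap is narrowest for Rgcc in NAC 3 (73.3 TPM, against 37.7 TPM for Cdkn1c). Among them the NAC and saline points stand farthest apart for Rgcc, which was picked by its lower values in NAC.

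The rest of the pathway was described with 6 lists, and edgeR called 0 of their 54 tested genes. At an unadjusted edgeR p under 0.05 there were 10 (18.5%), close to the 16.2% of all genes tested. They were spread unevenly, with 5 among the 14 S-phase and mitosis markers. The 13 RB, E2F and DP genes held 2, the INK4 list 0 and each other list 1. Of the 7 other G1-S cyclins and kinases, 4 had positive and 3 negative log2 folds with a median of 0.27; Cdk2, the kinase of cyclin E, had 52.1 ± 23.7 CPM in NAC and 86.5 ± 8.80 CPM in saline (log2 fold -0.72, edgeR adjusted p = 0.297), Ccne2, the cyclin E2 gene, a log2 fold of 0.58, and Ccnh, a subunit of the kinase that activates the others, of 0.62. Of the 4 INK4 inhibitor genes 2 were tested, Cdkn2c (log2 fold 0.068) and Cdkn2d (0.087), and Cdkn2a and Cdkn2b were too low. Among the 13 RB, E2F and DP genes 7 were positive and 6 negative, with a median of 0.026. Rb1, the retinoblastoma gene, had 67.2 ± 37.8 CPM in NAC and 24.6 ± 10.3 CPM in saline (log2 fold 1.40, edgeR adjusted p = 0.146), E2f5, a repressive E2F gene, had 58.3 ± 39.3 and 24.8 ± 12.2 CPM in the same groups (log2 fold 1.30, edgeR adjusted p = 0.189), and Tfdp1, a partner of E2F factors, had a log2 fold of -0.48. The groups overlapped for each of these. The log2 fold of Rb1 was 0.89 without NAC 2, 0.54 without NAC 2 and NAC 3 and 0.72 with GC and length offsets, and DESeq2 called the gene (adjusted p = 0.0470).

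Genes for the turnover of G1 cyclins and of the Cdkn1b protein had 5 positive and 5 negative log2 folds of 10, with a median of -0.051. Fzr1, an activator of the anaphase-promoting complex in G1, had 47.2 ± 43.9 CPM in NAC and 114 ± 25.5 CPM in saline (log2 fold -1.08, edgeR adjusted p = 0.268), Skp1a, a core subunit of SCF ubiquitin ligases, a log2 fold of 0.55 and Cks1b, a cofactor of Skp2, of -0.35. CDK1, its cyclins and partners, the kinase group to which the Rgcc product binds, had 2 positive and 6 negative of 8 with a median of -0.45. Plk1, a mitotic kinase, had 113 ± 64.1 CPM in NAC and 197 ± 22.0 CPM in saline (log2 fold -0.77, edgeR adjusted p = 0.259), Wee1, which encodes an inhibitory kinase of CDK1, a log2 fold of -0.74, and Cdc25c, which encodes an activating phosphatase, of -0.90.

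The 14 S-phase and mitosis markers had 3 positive and 11 negative log2 folds with a median of -0.41. In 4 of the 14 every NAC library lay below every saline library, where 3.43% of all genes tested did. Mcm5, a subunit of the replicative helicase, had 73.3 ± 37.4 CPM (SD over 4 libraries) in NAC and 212 ± 50.2 CPM (SD over 6) in saline (log2 fold -1.55, edgeR adjusted p = 0.0857). Mcm2, another subunit, had 116 ± 22.6 CPM in NAC and 210 ± 28.4 CPM in saline (log2 fold -0.88, edgeR adjusted p = 0.116), and Aurka, a spindle kinase gene, 52.0 ± 24.3 CPM in NAC and 132 ± 37.1 CPM in saline (log2 fold -1.27, edgeR adjusted p = 0.104). None of them passed. DESeq2 called 5 of the 54 list genes (9.26%, against 4.21% of all genes), limma-voom with sample weights 2 of 54 (3.70%, against 4.77%) and edgeR without a filter 1 of 56 (1.79%, against 1.06%), with Mcm5 called by each of these. Mki67, a marker of cycling cells named after its values were seen, lay the other way, at 700.4 ± 222 CPM in NAC and 391.9 ± 148 CPM in saline (log2 fold 0.84, edgeR adjusted p = 0.206), with overlapping groups.

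**Figure D5:**
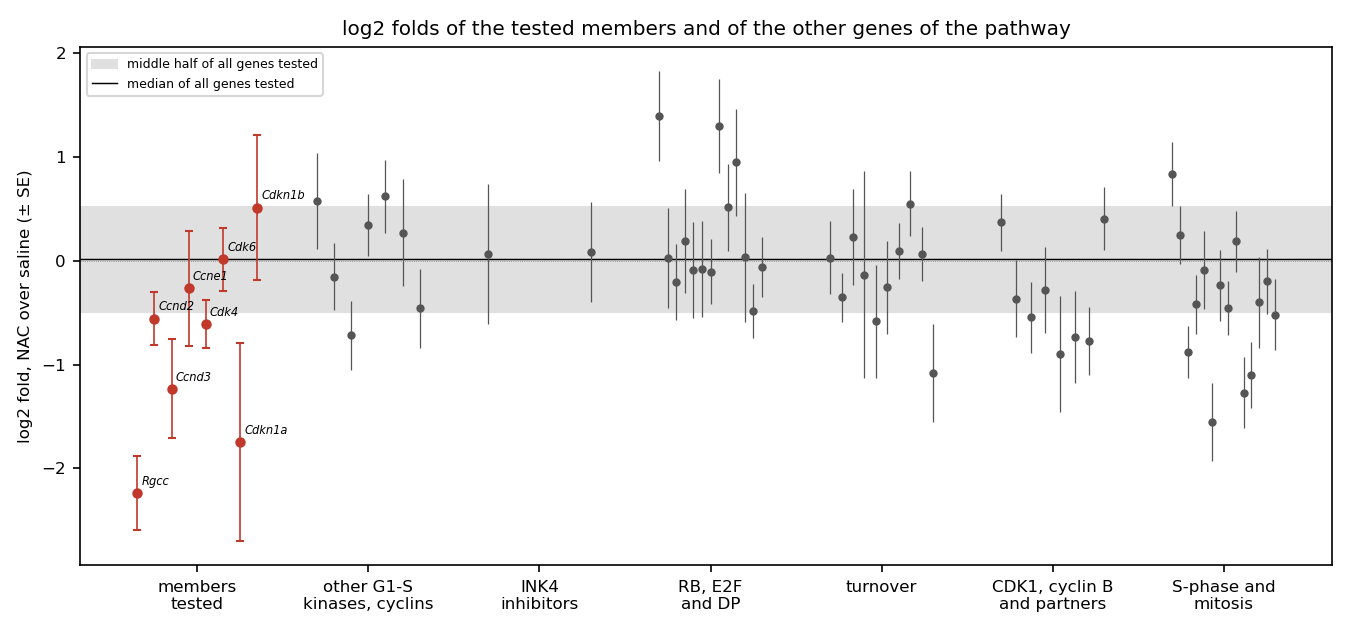
log2 fold of NAC over saline (vertical axis, ± SE) for the 8 members that were fitted, labelled, and for each tested gene of the 6 pathway lists; the grey band runs from the lower to the upper quartile of all genes tested (-0.49 to 0.52). Rgcc, which was picked by its lower values in these same libraries, lies lowest at -2.24. The genes of the G1-S, INK4, RB and turnover lists spread around the median of all genes.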

How the data were processed

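Granulosa cell RNA was measured in 4 NAC and 6 saline libraries. Per the submitters' processing notes the authors used Salmon on GRCm38; its version and the annotation were not given in the sources used here. The deposited tables hold estimated counts (fractional read assignments per gene) and TPM (scaled by an effective length that differs between libraries), per the file headers. The 1548 rows that carry a transcript name in place of a symbol took 0.496% to 0.638% of reads and were left out.

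Counts were rounded and tested with edgeR 4.0.16 (R 4.3.3; quasi-likelihood, robust, TMM factors, default low-count filter), which was also tested on simulated data; Benjamini-Hochberg adjustment ran over all genes tested. CPM use the TMM factors. SE is the log2 fold divided by the square root of the F statistic. Alternatives used limma 3.58.1 and DESeq2 1.42.0. Positions, GC content and transcript lengths came from GENCODE M21 (GRCm38).

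Members and gene lists were chosen with earlier results of these data known. Besides the members, up to 3 genes a list with the smallest unadjusted p and at least 10 CPM on average were named, and the 4 genes most correlated with Rgcc, of which 1 is not reported here; other genes named (Inha, Pecam1, Egfl7, Esam, Mki67) were chosen after their values were seen. Intervals and floors of 3 reads cover counting error only, since no molecular identifiers separate PCR copies from molecules.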

Additional observations from a re-analysis of the deposited data

Results flagged for a closer look

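Cdkn1a in NAC 1, at 13.7 CPM from 19 reads, stood apart from the other NAC libraries, which had 0 reads. It was the 1 library marked among the 20 groups of values examined (10 genes in NAC and in saline). With the other NAC libraries tied at 0 reads, any reads in NAC 1 would stand apart, so no chance rate is given for this mark. The value is within the range of the saline libraries, 7.66 to 19.0 CPM.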

How the results depend on the processing

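The log2 fold of Rgcc stayed negative under all 27 alternatives, between -2.53 and -1.83 (-2.53 to -2.08 with each library left out), and so did those of Cdk4 (-0.74 to -0.22) and Ccnd2 (-0.89 to -0.35). Rgcc was picked by its lower values in these same libraries, so its sign is a description and not support. No member other than Rgcc was called under any alternative except Cdkn1a without NAC 1 (0 to 1 called with each library left out). The count of 8 genes called overall became 226 without a low-count filter, 433 with DESeq2, 522 with limma-voom and sample weights, 4 with effective-length offsets, 71 with thinning to the shallowest library, 16 with GC and length offsets, 2 without NAC 2 and NAC 3, 1 with the oocyte, endothelial or granulosa level as a covariate, and 1 to 58 with each library left out; the cause was not tested. It was 58 without NAC 1, 39 without NAC 2, 22 without saline 1, 5 without saline 2, 2 without saline 4 and 1 without any of the other 5 libraries. Calls in the 6 pathway lists, 0 as reported, became 1 without a filter, 5 with DESeq2 and 2 with limma-voom, and stayed at 0 with each library left out. With the replicate number as a block 1 gene was called, and 0 members; same-numbered libraries had correlations of -0.0081 to 0.196 in their deviations, so the numbers were not taken to pair samples, and 1 of 4 NAC libraries correlated best with its own number.

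Signs turned for genes whose log2 fold as reported was between -0.27 and 0.75. Cdk6 was -0.013 without a filter, -0.23 with the replicate block, -0.43 on log2(TPM + 1), -0.47 on log2(TPM + 0.1), -0.70 with effective-length offsets, -0.47 with GC and length offsets, -0.21 with the oocyte and -0.13 with the granulosa level, and -0.20 to 0.23 with each library left out. Ccne1 was 0.11 with GC and length offsets and -0.72 to 0.098 with each library left out. Cdkn1b was -0.35 on log2(TPM + 1), -1.06 on log2(TPM + 0.1) and -0.73 with the endothelial level. Cdkn1c was -0.49 to 1.19 with each library left out. Ccne2 was -0.20 with limma-voom, -0.26 without NAC 2 and NAC 3 and -0.17 with GC and length offsets; Ccnh was -0.030 and Skp1a -0.095 without NAC 2 and NAC 3. Cdkn2c was -0.091 on log2(TPM + 1), -0.84 on log2(TPM + 0.1) and -0.54 to 0.47 with each library left out. Cdkn2d was -0.18 with the replicate block, -0.041 on log2(TPM + 1), -0.057 on log2(TPM + 0.1), -0.082 with effective-length offsets, -0.22 with the endothelial and -0.11 with the granulosa level, and -0.58 to 0.31 with each library left out. Depth limits Ccnd1, Ccnd3, Cdkn1a, Cdkn1b and Cdkn1c most, where NAC 3 had 0 to 1 reads. The granulosa covariate was chosen after seeing the data. With library size alone the median log2 fold of all genes moved to 0.19.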
